A study of Mus musculus with 4 samples.

Results

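A set of 8 transcription factor genes was followed across subgroups of cortical somatostatin (SST) neurons. The genes act in inhibitory neurons born in the medial ganglionic eminence (MGE), and some of them in other lineages too. They were Lhx6, Sox6, Satb1, Nkx2-1, Dlx1, Dlx2, Dlx5 and Dlx6, chosen by name as 8 of the 28000 features in the gene lists, and all 8 were found. The study used triple transgenic mice on a Crl:CD1(ICR) background that carry SST-Cre, the Cre-dependent reporter LSL-tdTomato and the X94-GFP transgene. Cells of their somatosensory cortex were sorted by fluorescence, and 3′ ends of their RNA were sequenced with the 10x Chromium single cell system as unique molecular identifiers (UMIs, 1 per captured RNA molecule). There were 4 libraries: tdTomato+ cells at postnatal day 97 (P97, 741 barcodes), tdTomato+ cells at P45 in 2 replicates (866 and 772 barcodes), and GFP+/tdTomato+ cells at P97 (232 barcodes). All groups carry the same 3 transgenes. tdTomato marks any cell in which the Sst gene has driven Cre at some time. GFP in the X94 line is driven by a Gad1 transgene and labels a subset of SST neurons. The P97 mice were pooled, and the sources used here do not give how many mice stand behind each P45 library. Age cannot be told apart from the set of mice used. Each library is 1 replicate. Groups of cells were compared within libraries, so differences in level between libraries do not enter those p-values. Such p-values rest on how group differences varied from library to library, largely as pooled over genes, and that variation may be partly technical. Only the comparison of ages used the spread of levels between libraries. The variance of each gene was moderated by values shared across all genes. In the comparisons of Hpse-positive cells the shared part had almost all the weight. A very small p there says little about that gene's own spread, and elsewhere it does not measure that spread alone.

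Barcodes with at least 2000 UMIs and at least 3 Sst UMIs were taken as SST cells, which gave 570 at P97, 664 and 644 at P45 and 208 in the GFP+ library. Their median depth was 7559.5 UMIs at P97, 5145.5 and 6137 at P45, and 15217.5 in the GFP+ library, and total UMIs per library ranged from 3410049 to 5693022. Barcodes with at least 3 UMIs of Slc17a7, the vesicular glutamate transporter, and more Slc17a7 than Gad1 plus Gad2 served as an excitatory background (113 cells in the tdTomato+ libraries). The 12 barcodes of all 4 libraries that met both rules were kept with the background cells of their library. They were 3 in the P97 tdTomato+ library, 4 and 2 in P45 replicates 1 and 2, and 3 in the GFP+ library. A summed SST interneuron list (Sst, Gad1, Gad2, Slc32a1, Elfn1, Grik1, Npy) stood at 11693 to 21183 CPM (UMIs scaled to the group's total) in SST cells, and the summed excitatory list at 2.26 to 6.84 CPM in those of the tdTomato+ libraries. Sst, Gad1, Gad2 and Slc17a7, which is in the excitatory list, took part in the rules for cells. These sums were thus partly fixed by the rules and are no independent check of cell identity. In these 3 libraries, 13 of 1878 SST barcodes held 87.6% of the UMIs of the oligodendrocyte list (Mbp, Mog, Mobp, Mag), at 10 or more each. These barcodes were kept, doublets were not called, and 5 barcode pairs were shared between libraries among 2611 barcodes. Leaving the 13 out, an alternative chosen after seeing the data, ended none of the 25 calls on these 8 genes given in what follows.

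In the embryo Nkx2-1 specifies the MGE and switches on the LIM homeobox gene Lhx6, and Lhx6 then acts through the SRY-box factor Sox6 and the chromatin organiser Satb1 as SST and parvalbumin neurons migrate, settle and mature. The distal-less genes Dlx1 and Dlx2 act upstream of Dlx5 and Dlx6 and are shared by inhibitory neurons of all ganglionic eminences, where they drive genes of GABA synthesis. In mice Nkx2-1 is switched off in MGE cells bound for the cortex, whereas Lhx6, Sox6 and Satb1 are known to persist in adult interneurons. Positions are given on GRCm38 with the GENCODE vM21 annotation. Lhx6 is on chromosome 2 (36081953 to 36105408, minus strand), Sox6 on chromosome 7 (115470872 to 116038796, minus strand), Satb1 on chromosome 17 (51736187 to 51833290, minus strand) and Nkx2-1 on chromosome 12 (56531958 to 56536908, minus strand). Dlx1 (71528113 to 71533981, plus strand) and Dlx2 (71543408 to 71546754, minus strand) stand 9426 bases apart on chromosome 2, and Dlx6 (6863334 to 6868568, plus strand) and Dlx5 (6877805 to 6882085, minus strand) 9236 bases apart on chromosome 6. Dlx1 lies within the antisense gene Dlx1as and Dlx6 within Dlx6os1. The sources used here do not give the strand setting of the counting, so reads of these overlapping pairs may not be separated.

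Promoter windows of 250 bases before each annotated start were read for the 6 of the 8 genes present in the RefSeq table (GRCm38.p6), 17 windows in all. They are shown for Sox6 and Satb1, on whose levels most of the results turn, and for Lhx6, which acts before them. Capitals mark matches to the SOX core AACAAT or its reverse complement ATTGTT, which stood in 3 of these 17 windows and in 9.42% of the 32851 windows in the table. The homeodomain core TAATTA, its own reverse complement, stood in 0 of the 17 and in 4.84% of all windows. A match is a description of letters only, and 3′ counts do not tell which start a transcript used. The outermost Sox6 start (chr7:116038745-116038994, minus strand) and the outermost Satb1 start (chr17:51833291-51833540, minus strand) held no match, the window of an internal Sox6 start (chr7:115824711-115824960, minus strand) held 2, and that of an internal Lhx6 start (chr2:36104061-36104310, minus strand) held 1.
Sox6, outermost start: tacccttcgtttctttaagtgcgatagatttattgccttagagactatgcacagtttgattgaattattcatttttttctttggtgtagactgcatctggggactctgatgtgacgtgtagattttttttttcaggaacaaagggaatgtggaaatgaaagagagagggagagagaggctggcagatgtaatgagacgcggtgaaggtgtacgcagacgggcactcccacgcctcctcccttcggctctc
Sox6, internal start: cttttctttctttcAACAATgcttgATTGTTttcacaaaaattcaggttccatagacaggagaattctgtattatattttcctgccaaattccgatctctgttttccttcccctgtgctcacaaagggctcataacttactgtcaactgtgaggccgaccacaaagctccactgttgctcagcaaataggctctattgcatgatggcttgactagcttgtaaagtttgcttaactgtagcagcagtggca
Satb1, outermost start: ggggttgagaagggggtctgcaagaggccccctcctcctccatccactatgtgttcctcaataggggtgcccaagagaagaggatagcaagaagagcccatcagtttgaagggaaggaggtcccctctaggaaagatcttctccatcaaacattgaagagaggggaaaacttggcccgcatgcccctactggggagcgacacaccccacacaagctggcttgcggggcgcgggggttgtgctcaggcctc
Lhx6, internal start: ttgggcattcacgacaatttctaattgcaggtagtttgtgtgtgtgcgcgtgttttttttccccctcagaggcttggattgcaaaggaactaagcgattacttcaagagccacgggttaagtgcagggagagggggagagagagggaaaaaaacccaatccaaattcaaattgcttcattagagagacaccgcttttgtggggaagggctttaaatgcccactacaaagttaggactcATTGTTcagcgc

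The first question was whether the genes were read in SST cells above their level in excitatory background cells. Free RNA in a droplet and RNA made by the background cells themselves were not told apart. Of the 8 genes, 7 were tested, and all 7 were higher in SST than in excitatory background cells of the same library, in 3 of 3 libraries each (20.8% of the 10911 genes tested were called in this comparison, 1072 of them higher). Lhx6 stood at 139, 196 and 181 CPM in SST cells of the P97, P45 replicate 1 and P45 replicate 2 libraries, against 4.04, 3.80 and 0 CPM in the excitatory cells, where it rested on 3 UMIs in all. Sox6 stood at 179, 202 and 170 CPM against 4.04, 1.90 and 0 CPM, and Dlx1 at 189, 189 and 217 CPM against 0, 3.80 and 4.5 CPM. In every library the SST level of these 3 genes lay far above the background. Pooled over libraries, the ratio of SST to background CPM was 56.4 for Lhx6 (exact 95% interval of counting error only, 19.3 to 274), 91.0 for Sox6 (25.2 to 752), 65.6 for Dlx1 (22.4 to 319), 18.6 for Dlx2 (6.35 to 90.5) and 61.2 for Dlx5 (10.9 to 2420). Dlx6 had 0 UMIs in the background cells and 710 in SST cells, at least 18.0-fold higher when the background is set to 3 UMIs over the group. Satb1 stood apart from the rest. It was at 663, 638 and 767 CPM in SST cells and at 117, 47.5 and 211 CPM in excitatory cells, a ratio of 6.79 (5.59 to 8.35), with 101 UMIs in the 113 excitatory cells. The adjusted p of the 7 genes ranged from 2.43e-08 to 1.80e-05 (edgeR's quasi-likelihood test, 3 libraries, library as block), and each stayed past the threshold of 0.05 in all 12 alternatives.

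Nkx2-1, the first factor of the cascade, was read in 3 SST cells of the tdTomato+ libraries with 1 UMI each, 2 at P97 and 1 at P45. It had 0 UMIs in the 208 GFP+ cells and in the excitatory cells, and too few counts to enter any test. With each cell thinned to 2000 UMIs, 0 of 1878 SST cells held a UMI of Nkx2-1, which allows a share of cells with a UMI of up to 0.16% by a limit of 3 counts (exact 95% upper bound 0.196%). Unthinned, 3 of 1878 cells had one, or 0.16%, so neither value limits the share of cells that express the gene.

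**Figure D1:**
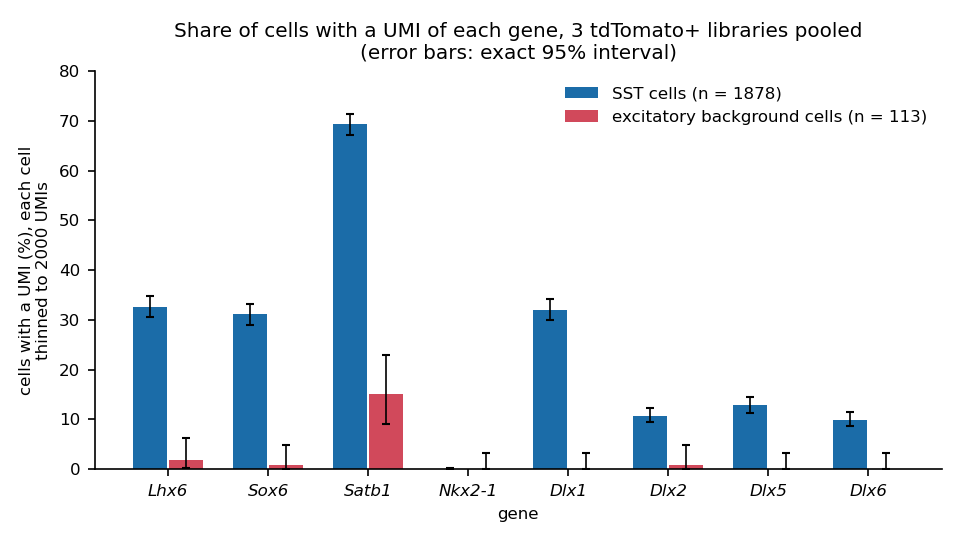
Share of cells (%, vertical axis) with at least 1 UMI of each of the 8 genes (horizontal axis) after thinning each cell to 2000 UMIs, in 1878 SST cells and 113 excitatory background cells of the 3 tdTomato+ libraries pooled, with exact 95% binomial intervals as error bars. Satb1 was found in 69.4% of SST cells and 15.0% of background cells, and Nkx2-1 in 0% of both.

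Shares of cells repeated this order. At 2000 UMIs per cell, Satb1 was found in 69.4% of SST cells (Clopper-Pearson 95% interval 67.2 to 71.5), and in 92.1% of them unthinned. In excitatory cells, whose median depth of 6778 to 10179.5 UMIs exceeded that of the SST cells of the same library (5145.5 to 7559.5), the thinned share of Satb1 was 15.0% (9.01 to 23.0). Lhx6, Sox6 and Dlx1 were each found in about as many SST cells as each other, with thinned shares of 32.6%, 31.2% and 32.1% and background shares of 1.77%, 0.88% and 0%. Dlx2, Dlx5 and Dlx6 were found in 10.8%, 12.8% and 9.96% of SST cells, and in 0.88%, 0% and 0% of background cells, where a count of 0 allows up to 2.65% by a limit of 3 counts (exact 95% upper bound 3.21%). Unthinned SST shares were 65.4% for Lhx6, 63.5% for Sox6, 66.9% for Dlx1, 30.5% for Dlx2, 32.6% for Dlx5 and 28.5% for Dlx6. A cell without a UMI is therefore no sign that it lacks the gene at this depth.

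At full depth, few SST cells had no UMI of any of the 8 genes. Unthinned, 4 of 570, 6 of 664 and 0 of 644 SST cells of the P97, P45 replicate 1 and P45 replicate 2 libraries had none, and the median cell had 4 of the 8. At 2000 UMIs per cell, 9.30%, 9.79% and 5.75% had none, and 13.9% in the GFP+ library. A UMI of any of the 8 is a loose rule, since Satb1 alone had one in 36.3% of excitatory background cells unthinned. Lhx6, Sox6 and Satb1 were all present in 46.0%, 39.5% and 37.4% of SST cells unthinned, which fell to 8.07%, 9.34% and 7.76% of cells at 2000 UMIs. In the thinned cells, the number holding both genes of a pair lay between 0.93 and 1.17 times the product of their shares for 20 of 21 pairs. Sox6 and Dlx6 made the exception, with 76 cells holding both against 58.3 from the product of shares within libraries, a ratio of 1.30. These ratios are descriptions without a test.

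SST cells were next divided by 7 marker genes of SST subgroups, each in turn. Cells with at least 2 UMIs of a marker were called positive and compared with cells with 0 UMIs of it in the same library, in the 3 tdTomato+ libraries. The groups are not exclusive (24 of the 43 Hpse-positive cells at P97 were also Pvalb-positive, and 21 of 87 Nos1-positive cells at P45 replicate 1 were Calb2-positive), and the 7 comparisons share most of their marker-negative cells. In such sums, fewer cells with a gene and less of its RNA per cell cannot be told apart. Across groups, Satb1 had the most calls and Dlx2 the fewest. Satb1 also had the most UMIs in these SST cells (9030, against 735 for Dlx2). Power therefore differed between genes, and counts of calls do not rank them by size of effect. Of all genes tested, 2.46% (Th) to 15.5% (Pvalb) were called in the 7 comparisons. Satb1 passed the test in 6 of the 7 marker comparisons, Sox6 in 4, Dlx6 in 3, and Dlx5, Dlx1 and Lhx6 in 1 each, while Dlx2 passed in 0.

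**Figure D2:**
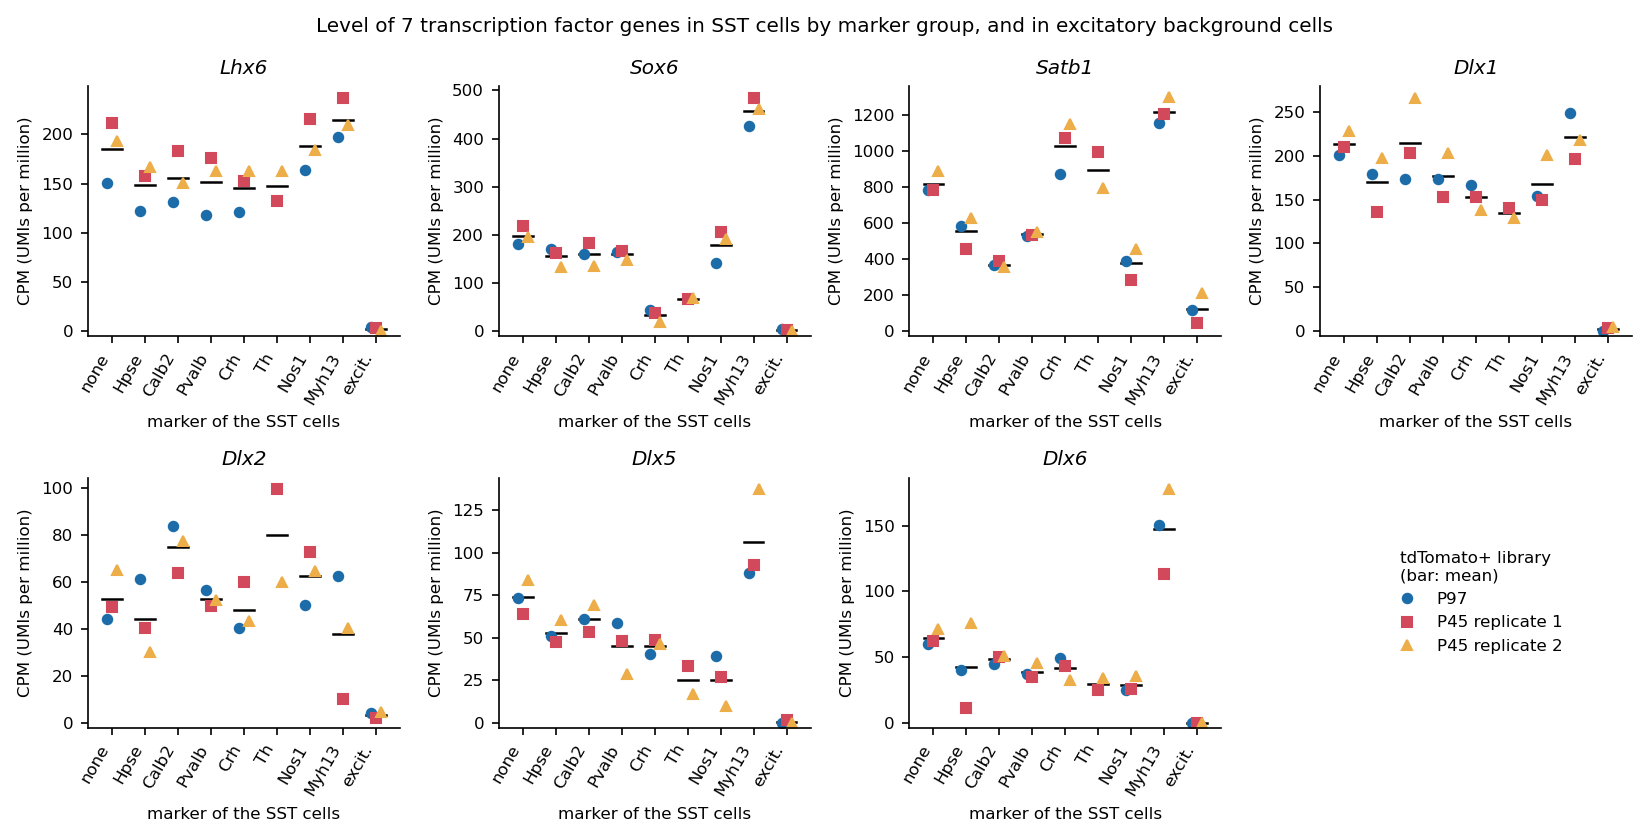
Level of 7 of the genes (vertical axes, CPM) in SST cells positive for each marker, in SST cells positive for none, and in excitatory background cells (horizontal axes), 1 point per tdTomato+ library. In the Crh group Sox6 lay between 19.0 and 45 CPM and in the Myh13 group between 425 and 485 CPM, and all other SST groups shown lay between these for this gene.

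Sox6 was low in Crh-positive and high in Myh13-positive cells, and also low in Th-positive cells, which are described further on. Crh encodes corticotropin-releasing hormone, and Myh13 a skeletal-type myosin heavy chain whose presence in neurons serves here only as a marker. Crh-positive cells (27, 30 and 43 cells) held Sox6 at 45, 38.1 and 19.0 CPM in the P97, P45 replicate 1 and P45 replicate 2 libraries, on 10, 7 and 7 UMIs, against 190, 213 and 194 CPM in Crh-negative cells. The ranges lay far apart. Sox6 fell by 2.67 on the log2 scale in Crh-positive cells (SE 0.23, adjusted p = 1.15e-08, lower in 3 of 3 libraries). At 2000 UMIs per cell the share of Crh-positive cells with a Sox6 UMI was 7.41%, 3.33% and 0%, against 32.9%, 33.2% and 34.6% of Crh-negative cells. In the GFP+ library, which did not enter the test, the 10 Crh-positive cells held 2 Sox6 UMIs (14.1 CPM) and the Crh-negative cells 446 (147 CPM). Median depth was 7636, 5719 and 8264 UMIs in Crh-positive and 7502, 5067 and 5971 UMIs in Crh-negative cells, and the oligodendrocyte list stood at 22.5, 32.6 and 16.3 CPM against 266, 279.9 and 232 CPM.

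In Myh13-positive cells (28, 23 and 26 cells) Sox6 was high, at 425, 485 and 460.5 CPM against 167, 187 and 156 CPM in Myh13-negative cells of the same libraries. Every positive group lay above every negative one. The log2 fold change was 1.34 (SE 0.14, adjusted p = 5.86e-13, 3 of 3 libraries), and the thinned share of cells with Sox6 was 50.0%, 73.9% and 65.4% against 29.3%, 28.6% and 28.3%. These positive cells were the shallower group, with median depths of 6961, 4365 and 4649 UMIs against 7701, 5221 and 6359, and their oligodendrocyte list stood at 25.9, 51.6 and 24.2 CPM against 257, 132 and 281 CPM. Both Sox6 calls, in the Crh and the Myh13 groups, held in all 15 alternatives.

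Satb1, which organises chromatin loops and is required for the survival and maturation of SST neurons in mice, rose in the same 2 groups. Crh-positive cells held it at 873, 1072 and 1150.5 CPM, against 648, 615 and 721 CPM in Crh-negative cells, and the ranges did not overlap. The log2 fold change was 0.63 (SE 0.087, adjusted p = 1.65e-05). Myh13-positive cells held it at 1156, 1207 and 1301 CPM against 634, 609 and 732 CPM, a log2 fold change of 0.80 (SE 0.10, adjusted p = 1.25e-09). Each rise was present in 3 of 3 libraries and in all 15 alternatives. Sox6 and Satb1 thus rose together in Myh13-positive cells, whereas in Crh-positive cells Sox6 fell and Satb1 rose. Of the genes tested, 5.5% were called in the Crh comparison (583 of 10593) and 5.77% in the Myh13 comparison (607 of 10525).

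**Figure D3:**
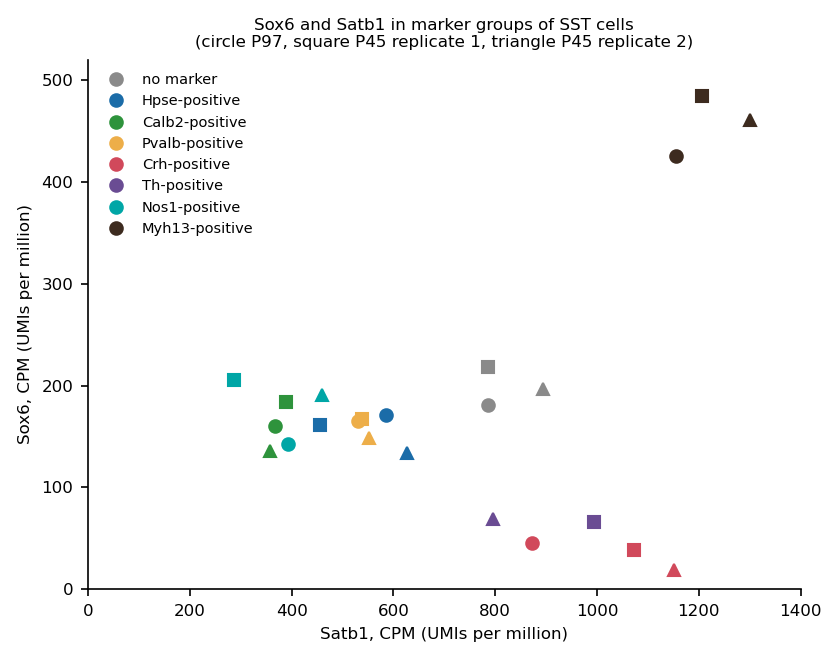
Sox6 (vertical axis, CPM) against Satb1 (horizontal axis, CPM) in marker-positive groups of SST cells and in marker-free SST cells, 1 point per group and tdTomato+ library, with the marker by colour and the library by shape. The Crh points lie at 19.0 to 45 CPM of Sox6 at 873 to 1150.5 CPM of Satb1, and the Myh13 points lie at 425 to 485 CPM of Sox6 at 1156 to 1301 CPM of Satb1.

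Satb1 was low in 4 other groups. In cells positive for Calb2, which encodes calretinin and is found in a set of Martinotti cells, it stood at 366, 389.6 and 357 CPM against 687, 707 and 841 CPM in Calb2-negative cells. It fell by 0.94 on the log2 scale (SE 0.098, adjusted p = 1.19e-07), and no value of 1 group reached the other. Calb2-positive cells were deeper, with medians of 9102, 6303.5 and 8470 UMIs against 7454, 4874 and 5949.5, and their oligodendrocyte list stood at 25.7, 48.1 and 32.5 CPM against 203, 260.04 and 309.9 CPM. In cells positive for Nos1, the neuronal nitric oxide synthase of long-range projecting SST cells, it stood at 393, 287 and 460 CPM against 715, 737 and 824 CPM, a fall of 0.91 (SE 0.12, adjusted p = 1.43e-07). In cells positive for Pvalb, the parvalbumin gene, it stood at 530, 538 and 551 CPM against 769, 687 and 846 CPM. The fall there was 0.51 (SE 0.077, adjusted p = 1.88e-05). Each of these 3 falls was present in 3 of 3 libraries and in all 15 alternatives. In the same 3 comparisons, 7.93% (Calb2, 824 of 10393), 7.13% (Nos1, 736 of 10320) and 15.5% (Pvalb, 1647 of 10613) of all genes tested were called.

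In cells positive for Hpse, the heparanase gene that marks the class holding many X94-GFP cells, Satb1 stood at 586, 456 and 627 CPM against 675, 666 and 785 CPM in Hpse-negative cells. The difference was smaller (a fall of 0.31 on the log2 scale, SE 0.098, adjusted p = 0.0177, lower in 3 of 3 libraries, with 11.4% of 10517 genes called). It was lost in 7 of 15 alternatives, over which the adjusted p ran from 0.0117 to 0.637. Without P45 replicate 1 the fall was 0.23 (adjusted p = 0.405), without P45 replicate 2 it was 0.31 (adjusted p = 0.0594), and in cells positive for Hpse alone it was 0.16 (adjusted p = 0.637). Hpse-positive cells were deeper than Hpse-negative ones, with median depths of 13392, 10170 and 8582 UMIs against 7149, 4895 and 5925. Their summed astrocyte list stood at 80.5, 66.2 and 39.4 CPM against 21.0, 21.9 and 4.37 CPM, with 4 of its 5 genes (Aqp4, Gja1, Slc1a3 and Gfap) at 0 UMIs in the positive cells of all 3 libraries, so that all of it was Aldoc, and their oligodendrocyte list stood at 21.0, 22.1 and 21.2 CPM against 296, 298 and 228 CPM. The part of depth in this result was not tested beyond the thinned cells, in which Satb1 had a log2 fold change of -0.39 (adjusted p = 0.196).

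By mean CPM over the 3 libraries, the order of Satb1 from low to high was Calb2 (371 ± 16.7, SD), Nos1 (380 ± 87.1), Pvalb (540 ± 10.7), Hpse (556 ± 89.6), no marker (821 ± 62.2), Crh (1032 ± 143) and Myh13 (1221 ± 73.3). The libraries of Calb2 and Nos1 overlapped, as did those of Pvalb and Hpse, those of Nos1 and Hpse (highest 459.6 and lowest 455.7 CPM), and those of marker-free and Crh-positive cells. For Sox6 the order was Crh (34.0 ± 13.5), Hpse (156 ± 19.9), Pvalb (160 ± 10.3), Calb2 (160 ± 23.8), Nos1 (180 ± 33.0), no marker (199 ± 19.2) and Myh13 (457 ± 30.1). The 5 middle groups overlapped from each to the next, and the first and last stood clear of them. Th-positive cells, measured in the P45 libraries alone, are not in these orders. Their Sox6 values of 66.3 and 68.5 CPM lay between those of the Crh group and the 5 middle groups.

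Direct comparison of Hpse-positive, Calb2-negative with Calb2-positive, Hpse-negative cells set the marker of many X94 cells against a marker found in Martinotti cells. Calb2 does not single out a Martinotti class, since the paper found it enriched in several clusters. In the P97 library 9 of 31 Calb2-positive cells were also Nos1-positive, and at P45, 21 of 82 and 4 of 55. Satb1 was higher in the Hpse-positive cells (563 ± 96.9 against 375 ± 18.2 CPM, SD, n = 3 libraries), by 0.54 on the log2 scale (SE 0.14, adjusted p = 0.0024, 3 of 3 libraries). Dlx2 was lower in them (44.3 ± 16.4 against 75.4 ± 9.27 CPM, log2 fold change -0.78, SE 0.27, adjusted p = 0.031, 3 of 3 libraries). These were 2 of the 7 genes tested, where 12.6% of all 6364 genes were called. Over the alternatives the adjusted p ran from 4.65e-05 to 0.196 for Satb1 (14 alternatives) and from 0.0158 to 0.758 for Dlx2 (13). Satb1 was lost without the P97 library (0.49, adjusted p = 0.0834) and without P45 replicate 2 (0.43, adjusted p = 0.0513). Dlx2 was lost without the P97 library (-1.10, adjusted p = 0.0552), without P45 replicate 1 (-0.82, adjusted p = 0.0869) and without P45 replicate 2 (-0.49, adjusted p = 0.441).

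**Figure D4:**
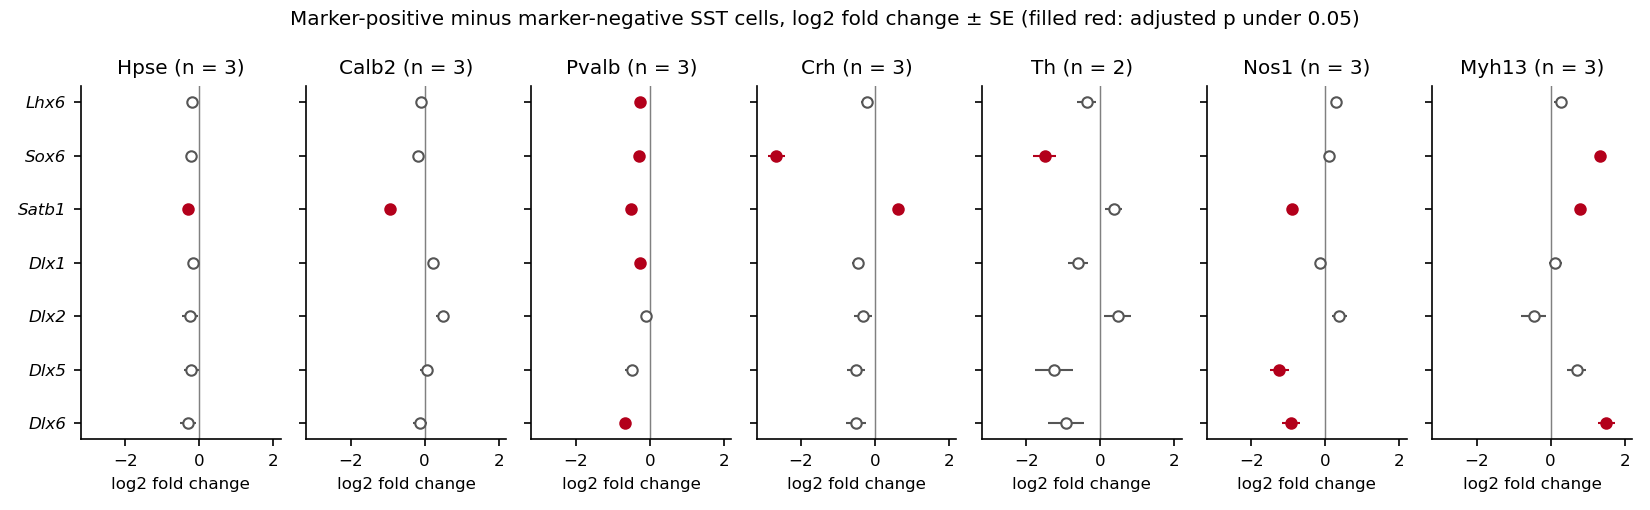
Log2 fold change (horizontal axes) of 7 of the genes (vertical axes) between marker-positive and marker-negative SST cells, 1 panel per marker with the number of libraries n. Error bars are a standard error derived from the test statistic. Points are filled red where the adjusted p is under 0.05. Sox6 at -2.67 in the Crh panel and Dlx6 at 1.51 in the Myh13 panel are the furthest filled points to the left and to the right.

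Of Dlx5 and Dlx6, the pair on chromosome 6, Dlx6 rose in Myh13-positive cells, and both fell in Nos1-positive cells. Dlx6 in Myh13-positive cells stood at 150.4, 113 and 178 CPM against 45.7, 46.4 and 57.8 CPM in Myh13-negative cells, and every positive group lay above every negative one. It rose by 1.51 on the log2 scale (SE 0.23, adjusted p = 3.21e-07, 3 of 3 libraries). The rise held in 14 of 15 alternatives and was lost after thinning to 2000 UMIs per cell (1.19, adjusted p = 0.166). Dlx5 had 88.1, 92.9 and 137 CPM against 64.0, 53.8 and 60.6 CPM there, in the same direction in 3 of 3 libraries (0.70, SE 0.25), but did not pass (adjusted p = 0.088).

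In Nos1-positive cells, Dlx5 stood at 39.3, 27.0 and 9.71 CPM against 69.0, 60.8 and 72.3 CPM in Nos1-negative cells, and Dlx6 at 25.0, 25.6 and 35.6 CPM against 56.9, 53.8 and 67.7 CPM. No positive group reached a negative one. Dlx5 fell by 1.24 (SE 0.26, adjusted p = 0.00068) and Dlx6 by 0.92 (SE 0.24, adjusted p = 0.0089), each in 3 of 3 libraries and on 33 and 36 UMIs in the positive cells. Over 15 alternatives the adjusted p ran from 1.57e-05 to 0.407 for Dlx5 and from 0.00304 to 0.28 for Dlx6. Dlx5 was lost without P45 replicate 2 (-0.91, adjusted p = 0.0567), and Dlx6 without the P97 library (-0.88, adjusted p = 0.0611) and without P45 replicate 1 (-0.94, adjusted p = 0.147). Both were also lost with DESeq2 and after thinning to 2000 UMIs per cell. Dlx5 was lost as well in cells positive for exactly 1 marker, and Dlx6 at a cut of 3 UMIs. Nos1-positive cells were deeper, with medians of 8017, 6608 and 8242 UMIs against 7305, 4694 and 5864, and their oligodendrocyte list stood at 17.8, 518 and 64.7 CPM against 296, 236 and 317 CPM.

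Pvalb-positive cells were lower in 5 of the 7 genes tested, where 15.5% of all genes were called. Besides Satb1, Dlx6 stood at 36.8, 34.6 and 45.7 CPM against 62.6, 54.7 and 63.6 CPM, a fall of 0.66 (SE 0.14, adjusted p = 0.0016, 3 of 3 libraries). It was lost without the P97 library (-0.56, adjusted p = 0.0838), and the adjusted p ran from 0.000211 to 0.513 over 15 alternatives. Lhx6 fell by 0.28 (152 ± 30.3 against 182 ± 30.1 CPM, SE 0.090, adjusted p = 0.035), Sox6 by 0.29 (160 ± 10.3 against 195 ± 18.4 CPM, SE 0.088, adjusted p = 0.026) and Dlx1 by 0.26 (177 ± 24.8 against 209 ± 11.6 CPM, SE 0.088, adjusted p = 0.044). The libraries of the 2 groups overlapped for Lhx6 and Dlx1, and did not for Sox6, whose highest positive value of 167 CPM lay below the lowest negative value of 179 CPM. All 3 were lower in 3 of 3 libraries, yet Lhx6 and Sox6 were lost when any 1 library was left out (adjusted p from 0.0712 to 0.221 for Lhx6 and from 0.0722 to 0.175 for Sox6). Over all 15 alternatives the adjusted p ran from 0.0144 to 0.83 for Lhx6, from 0.0123 to 0.412 for Sox6 and from 0.0342 to 0.552 for Dlx1. Dlx1 was lost without the P97 library (-0.23, adjusted p = 0.253) and without P45 replicate 1 (-0.21, adjusted p = 0.231). Dlx5 did not pass (-0.49, adjusted p = 0.053) and passed in 5 alternatives (adjusted p from 0.0062 to 0.692 over all 15), among them the fit without P45 replicate 1 (-0.57, adjusted p = 0.0078). Pvalb-positive cells were deeper than Pvalb-negative ones, with medians of 12261, 7598 and 8628 UMIs against 6349, 4625 and 5593, and their oligodendrocyte list stood at 267, 706 and 634 CPM against 142, 117 and 203 CPM. In cells thinned to 2000 UMIs, Sox6 (log2 fold change -0.54, adjusted p = 0.0123), Satb1 (-0.56, 9.38e-06) and Dlx5 (-0.95, 0.0137) passed, and Lhx6 (-0.10, 0.83), Dlx1 (-0.20, 0.552) and Dlx6 (-0.40, 0.514) did not.

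Th, the tyrosine hydroxylase gene, gave the smallest group. Th had 3 UMIs over all barcodes of the P97 library, 45 and 36 at P45 and 0 in the GFP+ library, so Th-positive cells were cut at 1 UMI and compared in the 2 P45 libraries (23 and 13 cells). Sox6 stood at 66.3 and 68.5 CPM in them, on 8 UMIs each, against 206 and 173 CPM in Th-negative cells. It fell by 1.5 on the log2 scale (SE 0.32, adjusted p = 0.033, 2 of 2 libraries, 2.46% of 10608 genes called), and it was the single member called, in 7 of 8 alternatives but not by DESeq2 (-1.46, adjusted p = 0.29; the lowest over the alternatives was 0.000783). Satb1 stood at 994 and 796 CPM against 627 and 766 CPM and did not pass (0.36, adjusted p = 0.57). Th-positive cells with at least 2 UMIs (12 and 9) held 14 UMIs of the list of interneurons from the caudal ganglionic eminence in P45 replicate 1 (202 CPM), all of Vip, and 0 in P45 replicate 2; their part in this result was not tested.

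Lhx6, Dlx1 and Dlx2 passed in few groups. With Th left out, since it was measured in the P45 libraries alone, mean Lhx6 lay between 146 ± 21.5 CPM in Crh-positive and 215 ± 20.6 CPM in Myh13-positive cells, Dlx1 between 152 ± 14.0 CPM in Crh-positive and 221 ± 26.5 CPM in Myh13-positive cells, and Dlx2 between 37.6 ± 26.1 CPM in Myh13-positive and 74.7 ± 10.3 CPM in Calb2-positive cells. In each order, every group overlapped its neighbour. Th-positive cells, at 1 UMI or more, had means of 148 CPM for Lhx6, 135 CPM for Dlx1 and 79.7 CPM for Dlx2 over the 2 P45 libraries, the last 2 of them outside these ranges. A pair of differences came near the threshold. Dlx2 was higher in Calb2-positive cells in 3 of 3 libraries (63.5 to 83.6 against 50.7 to 58.3 CPM, log2 fold change 0.49, SE 0.17, adjusted p = 0.075). Dlx1 was lower in Crh-positive cells in 3 of 3 libraries (138 to 166 against 191 to 229 CPM, -0.47, SE 0.14, adjusted p = 0.065), and passed in 6 alternatives, among them the fit without the P97 library (-0.60, adjusted p = 0.0167), over a range of 0.0127 to 0.643. For Dlx6 the order of group means ran from Nos1 (28.7 ± 5.97 CPM) through Pvalb, Crh, Hpse and Calb2 (39.0 to 48.5 CPM) to marker-free cells (64.6 ± 5.89 CPM) and Myh13 (147 ± 32.2 CPM), and for Dlx5 from Nos1 (25.3 ± 14.8 CPM) to Myh13 (106 ± 27.1 CPM). Myh13 stood clear of every other group in both orders. Th-positive cells had 29.6 CPM of Dlx6 and 25.1 CPM of Dlx5, on 7 and 6 UMIs.

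The 32 other genes listed as the network of these factors gave context for the same groups. Shares of all genes called stand beside each count. In Crh-positive cells, 5 of 26 tested rose and 6 fell (5.5% of all genes called). Maf, a transcription factor active in SST interneurons, fell in them from 513 to 102 CPM (log2 fold change -2.33, adjusted p = 1.47e-11), and Erbb4, the neuregulin receptor, rose from 55.7 to 323 CPM (2.54, adjusted p = 1.03e-10). In Myh13-positive cells 3 of 25 rose and 9 fell (5.77%). Mef2c, an activity-regulated factor, was at 179 against 916 CPM (-2.49, adjusted p = 7.33e-25), and Nr2f2, a factor of the caudal and dorsal MGE lineages, at 183 against 58.1 CPM (1.55, adjusted p = 7.45e-09). Nr2f2 was low where Satb1 was low in the Calb2-positive (11.2 against 74.8 CPM, -2.57) and Nos1-positive groups (5 UMIs in all, 5.95 against 80.02 CPM, -4.15). The same held in the Pvalb-positive (33.6 against 84.4 CPM, -1.25) and Hpse-positive groups (0.58 against 78.1 CPM, -6.50). Nr2f2 was also low in the Crh-positive group (8.12 against 71.4 CPM, -2.98), where Satb1 was high.

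In Calb2-positive cells 8 of 25 network genes rose and 5 fell (7.93% of all genes called), among them Sst itself (0.92, adjusted p = 1.58e-08) and Erbb4 (-2.88, adjusted p = 5.12e-09). In Nos1-positive cells 5 of 24 rose and 6 fell (7.13%), with Elmo1, a regulator of cell migration, at 250 against 83.0 CPM (1.73, adjusted p = 3.40e-14). In Hpse-positive cells 6 of 26 rose and 8 fell (11.4%). Maf was at 1092 against 383 CPM there (1.55, adjusted p = 3.95e-50), whereas the transcription factors Etv1 and Nr2f2 had 1 UMI each in the 109 positive cells, against 919 and 871 UMIs in the negative cells. Dlx6os1, which overlaps Dlx6, fell by 1.01 in them (30.8 against 61.7 CPM, adjusted p = 0.00031), while Dlx6 itself was at 40.3, 11.03 and 75.7 CPM against 51.7, 53.8 and 61.5 CPM and did not pass. The fall of Dlx6os1 was lost without the P97 library (-0.74, adjusted p = 0.196). In Pvalb-positive cells 9 of 25 rose and 6 fell (15.5%), with Npas1, a transcription factor of interneurons, at 35.0 against 136 CPM (-1.96, adjusted p = 1.10e-11). In Th-positive cells 3 of 26 rose and 4 fell (2.46%), and Maf had 2 UMIs in their 36 cells against 3798 in Th-negative cells. Median log2 fold changes of the network genes tested lay between -0.69 and 0.19 over these 7 comparisons, beside -0.11 to -0.0035 for all genes tested.

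Age was compared with 1 library at P97 and 2 at P45. None of the 7 genes tested passed, where 2.38% of 12061 genes did (287, with 1744 at an unadjusted p under 0.05). Lhx6 showed the largest difference, at 139 CPM at P97 against 196 and 181 CPM at P45 (log2 fold change -0.45, SE 0.13, adjusted p = 0.10). It passed with no filter on low counts (adjusted p = 0.0248) and with the deepest 5% of barcodes left out (0.0138), and DESeq2 gave the highest value over the alternatives (0.9999). The other 6 differed by -0.16 to 0.12 on the log2 scale. A difference between ages in the size of the group effects was tested after seeing the data, in 56 edgeR interaction tests. They covered the marker comparisons other than Th, and SST against excitatory cells. The smallest adjusted p was 0.83, for Dlx1 in SST against excitatory cells. With 1 library at P97, a difference between ages could be missed.

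The GFP+ library was set beside the tdTomato+ library of the same age. The authors sorted the tdTomato+ cells whatever their GFP, so that library can hold GFP+ cells too. The ratios are therefore not of GFP+ over GFP-negative cells. GFP itself stood at 343 CPM in SST cells of the tdTomato+ library and at 518 CPM in those of the GFP+ library. With 1 library per sort no test was possible, and the intervals cover counting error only. The ratio of GFP+ to tdTomato+ CPM was 0.81 for Lhx6 (112 against 139 CPM, exact 95% interval 0.71 to 0.92), 0.78 for Sox6 (140 against 179, 0.70 to 0.88), 0.86 for Satb1 (569 against 663, 0.81 to 0.91), 0.85 for Dlx1 (160 against 189, 0.76 to 0.95) and 0.64 for Dlx6 (33.4 against 52.3, 0.50 to 0.80). For Dlx2 it was 1.12 (0.93 to 1.36) and for Dlx5 1.02 (0.86 to 1.22). Of the 7 intervals, 5 lay below 1. Hpse-positive cells made up 91 of 208 SST cells in the GFP+ library and 43 of 570 in the other. Within Hpse-positive cells the ratios were 0.85 for Lhx6, 0.84 for Sox6, 0.97 for Satb1, 0.88 for Dlx1, 1.10 for Dlx2, 1.32 for Dlx5 and 0.71 for Dlx6. All 7 intervals included 1 there, and with fewer cells they were wider. Within Pvalb-positive cells 6 of the 7 included 1, and the ratio for Sox6 was 0.83 (0.70 to 0.97). The GFP+ cells were also deeper (15217.5 against 7559.5 UMIs at the median), their oligodendrocyte list was lower (24.7 against 244 CPM) and their astrocyte list higher (108 against 33.4 CPM). After thinning to 2000 UMIs, which gives each cell the same weight, the ratio was 0.71 for Lhx6, 0.75 for Satb1, 1.49 for Dlx2 and 0.74 for Dlx5, each outside its first interval. The thinned intervals of Lhx6 (0.51 to 0.96) and Satb1 (0.64 to 0.87) lay below 1, and those of the other 5 genes included 1.

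**Figure D5:**
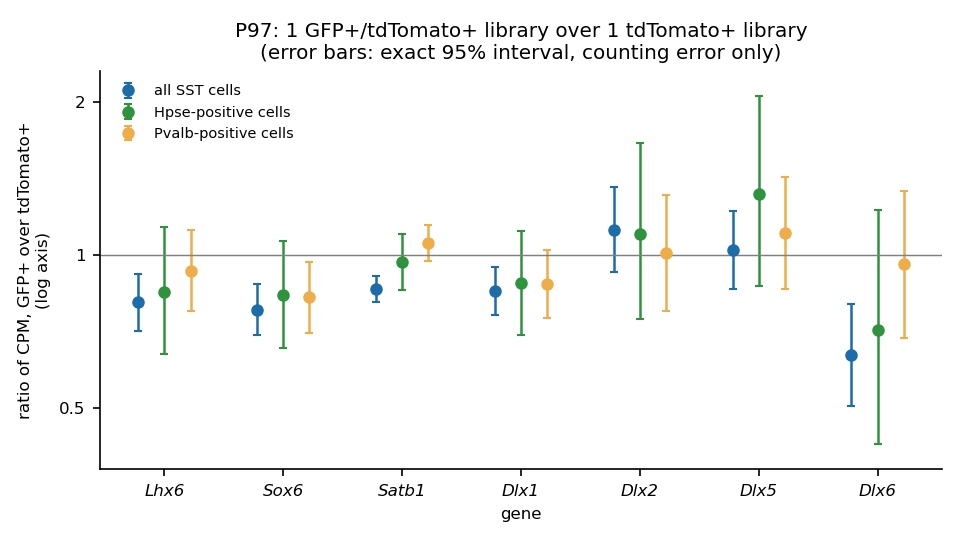
Ratio of CPM in the P97 GFP+/tdTomato+ library to CPM in the P97 tdTomato+ library (vertical axis, log scale) for 7 of the genes (horizontal axis), in all SST cells, Hpse-positive cells and Pvalb-positive cells, with exact 95% intervals of counting error as error bars. In all SST cells Dlx6 was lowest at 0.64, and in Hpse-positive cells every interval crossed 1.

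Finally, genes with the most similar pattern were listed over 22 sums of SST cells, each of cells positive for a single marker or for none in 1 tdTomato+ library, among 7521 genes on the log2 CPM scale. The sums share libraries and differ in depth, so the values are descriptions. Satb1 was most like Sez6l (Pearson r = 0.88, Spearman rho = 0.87), Plppr1 (0.88, 0.88) and Thrb, a thyroid hormone receptor (0.85, 0.84). Sox6 was most like Ankrd44 (0.87, 0.75), Ssbp4 (0.81, 0.62) and Socs2, a suppressor of cytokine signalling (0.77, 0.84). Dlx6 was most like Reln, the reelin gene (0.87, 0.72), Mgll (0.87, 0.72) and Zfyve16 (0.86, 0.78), and Lhx6 most like Arl8a (0.85, 0.71). The highest values were 0.74 for Dlx1 (with Fchsd2), 0.85 for Dlx2 (with 5430416N02Rik) and 0.79 for Dlx5 (with Plpp4).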

How the data were processed

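The authors sorted cells by fluorescence, prepared 10x Chromium 3′ libraries and deposited, per library, a matrix of UMI counts per gene and barcode made with Cell Ranger 2.0.0 on GRCm38, per the labels and the submitters' processing notes. The deposited counts are whole numbers and were used unnormalized. Members, marker groups and gene lists were chosen with earlier results of these data known. Raw counts were summed per library and cell group, with at least 10 cells per sum, and tested with edgeR 4.0.16 (R 4.3.3, TMM, filterByExpr, glmQLFit and glmQLFTest), adjusting by Benjamini-Hochberg over all genes tested. The library was a block because both groups of a library came from the same mice. Each cell was thinned to 2000 UMIs for shares. The Th groups could not be cut at 2 UMIs, since 1 P45 library then held 9 positive cells and P97 held 0, so a cut at 1 UMI was used. Named network genes were, in each comparison, the 2 genes of each list (partners, downstream genes, caudal eminence factors) with the smallest p among those called. A further gene of the oligodendrocyte list is not reported here, and the list was summed without it. Fits were tested on simulated data. Alternatives used DESeq2 1.42.0, RLE size factors, no low-count filter, other cuts of cells, no block and 1 library left out. Python 3.11.15, numpy 2.4.6, scipy 1.17.1, pandas 2.3.3 and matplotlib 3.10.9 were used. Intervals and floors (3 counts) cover counting error only.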

Additional observations from a re-analysis of the deposited data

How the results depend on the processing

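Of the 25 calls on the 8 genes, 25 kept their direction and 14 stayed past the threshold in every alternative run for their comparison. Of those 14, 7 were from SST against excitatory cells. The rest were Satb1 for Calb2, Pvalb, Nos1, Crh and Myh13 and Sox6 for Crh and Myh13. Every other call between SST subgroups was lost in some alternative. Of the 45 results that did not pass, 7 passed in some alternative. The number of genes called over the whole table depended more on the processing, and the cause was not tested. DESeq2 called 488 genes for Hpse, 270 for Calb2, 526 for Pvalb, 281 for Crh, 141 for Th, 292 for Nos1, 232 for Myh13, 213 for Hpse against Calb2, 1405 for SST against excitatory cells and 87 for age. Thinned to 2000 UMIs, where fewer counts remain, the numbers were 270, 236, 528, 207, 264 and 145 for Hpse, Calb2, Pvalb, Crh, Nos1 and Myh13, 142 for Hpse against Calb2 and 1137 for SST against excitatory cells. Without the replicate block, which removes the pairing of groups within a library, they were 524, 238, 575, 308, 322 and 261 for Hpse, Calb2, Pvalb, Crh, Nos1 and Myh13 and 477 for Hpse against Calb2. Without the block 6 member calls were lost: Satb1 for Hpse (-0.32, adjusted p = 0.296), Lhx6 (-0.29, 0.415), Sox6 (-0.29, 0.211) and Dlx1 (-0.25, 0.298) for Pvalb, and Satb1 (0.55, 0.0514) and Dlx2 (-0.69, 0.179) for Hpse against Calb2. Cells positive for exactly 1 marker gave 613 (Hpse) and 427 (Nos1), leaving out the deepest 5% of barcodes 454 (Nos1), 514 (Hpse against Calb2) and 604 (age), a cut at 3 UMIs 321 (Myh13), no low-count filter 520 (Th) and 701 (age), and leaving out oligodendrocyte-rich barcodes 396 (Th). With 1 library left out the numbers ran from 719 to 1073 (Hpse), 409 to 698 (Calb2), 753 to 1397 (Pvalb), 355 to 537 (Crh), 277 to 555 (Nos1), 319 to 487 (Myh13), 503 to 623 (Hpse against Calb2) and 1589 to 2578 (SST against excitatory cells). Signs turned in 21 values, none of them past the threshold in either setting. Thinning gave log2 fold changes of 0.010 for Lhx6 (Hpse), 0.11 for Dlx6 (Calb2), 0.099 for Dlx2 (Myh13) and 0.44 for Lhx6 (Hpse against Calb2). A cut at 1 UMI gave 0.035 for Dlx1 (Hpse), -0.041 for Dlx5 (Calb2), 0.040 for Lhx6 (Crh), and -0.090 for Sox6 and 0.033 for Dlx1 (Nos1). A cut at 3 UMIs gave -0.043 for Dlx5 (Calb2), 0.038 for Dlx2 (Pvalb), -0.29 for Lhx6 (Myh13) and 0.16 for Sox6 (Hpse against Calb2). Cells positive for exactly 1 marker gave 0.0094 for Dlx1 and 0.046 for Dlx6 (Hpse). With 1 library left out the values ran from -0.79 to 0.014 for Dlx2 (Hpse), -0.036 to 0.095 for Dlx5 (Calb2), -0.0054 to 0.21 for Sox6 (Nos1), -0.046 to 0.22 for Dlx1 (Myh13), and from -0.24 to 0.046 for Lhx6 and -0.62 to 0.31 for Dlx6 (Hpse against Calb2). For Th, cells positive for exactly 1 marker and the deepest 5% left out gave too few cells, and leaving out a P45 library left 1 library, as it left 1 against 1 for age; these were not run. Low counts limit Dlx2, Dlx5 and Dlx6 in small groups, and Nkx2-1 everywhere.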
